A study of Mus musculus with 10 samples.

Results

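The subject is a set of 9 genes of blood vessel signalling measured in mouse neural stem and progenitor cells (NSPCs): the VEGF ligands Vegfa, Vegfb and Vegfc, the VEGF receptors Flt1, Kdr and Flt4, the angiopoietins Angpt1 and Angpt2, and the peptide gene Apln. They are 9 of the 57180 genes in the deposited RNA table and were picked by symbol, with their RNA difference between genotypes already known from these libraries. That difference is therefore given as a description, and nothing is inferred from it. NSPCs were taken from brains of mice of wild type (WT) or of the genotype given as Mina53-KO. Mina53 is the former name of Riox2, a JmjC-domain protein to which the series title assigns arginine demethylase activity on histone H4. Both groups carry the treatment label "non", the CUT&Tag labels also list NSPCs as a cell line, and the labels used here give no age, sex, strain, brain region, knockout allele or number of animals. RNA was measured in 3 WT and 3 KO libraries, and chromatin by CUT&Tag, an antibody-directed transposase assay, in 2 WT and 2 KO libraries. No antibody is named for the CUT&Tag libraries, and nothing says whether each library is its own animal or culture, so the tests see library-to-library spread, which may be technical.

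VEGF proteins are secreted ligands that bind receptor tyrosine kinases on endothelial cells, the cells that line vessels. Kdr (VEGFR2) is the main signalling receptor for Vegfa; Flt1 (VEGFR1) binds Vegfa and Vegfb tightly, has weak kinase activity and also exists as a secreted decoy; Flt4 (VEGFR3) binds Vegfc and is known for lymphatic vessels. Angpt1 activates the receptor Tie2, encoded by Tek, and stabilises vessels, while Angpt2 opposes it in many settings. Apelin, made from Apln, signals through the receptor Aplnr on endothelial tip cells and other cells. In the developing brain, neural progenitors are a source of Vegfa for the vessels that grow in from the surface, and Vegfa is a standard target of the hypoxia-inducible factors (HIF).

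The sequences just upstream of the start sites are shown for 4 of the genes: Flt1, which had the largest positive RNA difference among them, Vegfa, the most abundant ligand, and Kdr and Vegfc, where a CUT&Tag region lay on the start site. RefSeq promoter entries (build GRCm38.p6) matched 7 of the 9 genes, and Angpt1 and Angpt2 had none. Each line gives the 250 bases before the RefSeq start in the direction of transcription. Capitals mark matches, on either strand, to a hypoxia response core (ACGTG), a cAMP response element (TGACGTCA), an ETS core (GGAAG), a GC box (GGGCGG) or a TATA box (TATAAA).
Flt1, chr5:147726012-147726261 (minus strand): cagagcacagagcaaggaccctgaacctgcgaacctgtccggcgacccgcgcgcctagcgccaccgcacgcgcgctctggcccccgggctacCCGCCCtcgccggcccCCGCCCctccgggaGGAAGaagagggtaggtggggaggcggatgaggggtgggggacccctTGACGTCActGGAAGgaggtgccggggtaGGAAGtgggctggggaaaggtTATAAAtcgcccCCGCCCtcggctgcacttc
Kdr, chr5:75978456-75978705 (minus strand): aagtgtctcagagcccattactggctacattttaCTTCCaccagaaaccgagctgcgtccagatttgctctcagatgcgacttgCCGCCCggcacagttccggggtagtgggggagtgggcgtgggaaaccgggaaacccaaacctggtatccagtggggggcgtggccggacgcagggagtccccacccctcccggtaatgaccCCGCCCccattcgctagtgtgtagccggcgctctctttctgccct
Vegfa, chr17:46032378-46032627 (minus strand): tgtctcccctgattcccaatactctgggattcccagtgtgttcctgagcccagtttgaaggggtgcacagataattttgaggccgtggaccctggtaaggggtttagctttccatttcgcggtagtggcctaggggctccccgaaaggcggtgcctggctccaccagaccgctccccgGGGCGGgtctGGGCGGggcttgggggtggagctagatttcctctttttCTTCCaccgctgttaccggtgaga
Vegfc, chr8:54077282-54077531 (plus strand): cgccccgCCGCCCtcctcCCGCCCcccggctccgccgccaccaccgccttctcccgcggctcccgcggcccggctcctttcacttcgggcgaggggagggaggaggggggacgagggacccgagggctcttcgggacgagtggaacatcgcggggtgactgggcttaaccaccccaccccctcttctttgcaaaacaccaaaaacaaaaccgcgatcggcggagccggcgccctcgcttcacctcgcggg
The Flt1 stretch held 1 cAMP response element, whose first base lay 81 bases before the start, against 1.55% of 32851 RefSeq promoter entries of the same length. It also held a TATA box at 31 bases (12.4% of entries), 3 ETS cores (64.1% of entries held at least 1) and 3 GC boxes (32.7%). Kdr and Vegfa each held 1 ETS core and 2 GC boxes, and Vegfc held 2 GC boxes. None of the 7 matched members held ACGTG in this window, a string found in 16.6% of entries. The GCGTG form of the hypoxia response core was not searched or marked. The Kdr stretch above holds it, so the lack of ACGTG is not a lack of every form. These are letter matches and say nothing of occupancy.

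Riox2 itself (ENSMUSG00000022724) measured 20.0, 17.2 and 18.5 CPM in WT 1 to 3 and 3.26, 3.78 and 3.70 CPM in KO 1 to 3, so each library matched its label. CPM are counts per 1e6 counts, scaled between libraries by TMM (trimmed mean of M values). RNA libraries held 19922983 to 25939348 counts, and CUT&Tag libraries held 2913959 to 4038765 reads in regions. The fit called 525 of 15298 tested genes at an adjusted p under 0.05 (3.43%), and the groups did not overlap for 19.0% of tested genes. The RNA libraries differed in their mitochondrial share of counts, which was 2.31% to 2.68% in WT 1, KO 1 and KO 2 and 3.52% to 5.71% in WT 2, WT 3 and KO 3. Because this split crosses the genotypes, differences are also given within each class of libraries, as 1 WT against 2 KO and 2 WT against 1 KO.

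Among these genes, the VEGF ligands and Angpt1 were lower in KO, and the receptors, Angpt2 and Apln were higher. All 9 passed the filter on low counts. Of them 5, Flt1, Angpt2 and Apln with higher and Angpt1 and Vegfb with lower values, were among the 525 called genes, against 3.43% of all tested genes (1.77% higher, 1.66% lower); the members were chosen on this contrast, so the share carries no evidence. Only Vegfa had groups that overlapped, while 19.0% of all tested genes had groups that did not, and the same limit applies. The median log2 fold change over all tested genes was 0.01.

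**Figure D1:**
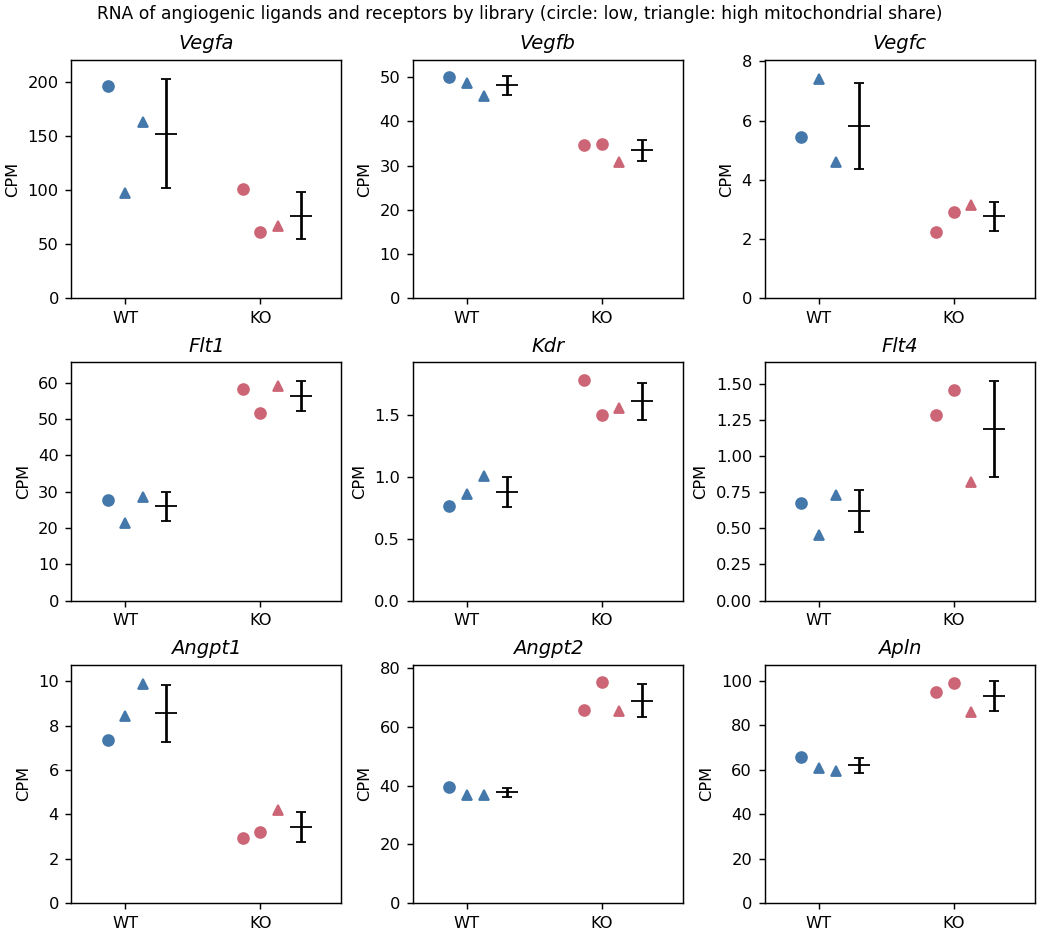
RNA level of each gene in CPM (y axis, from 0) in 3 WT and 3 KO libraries; circles and triangles mark libraries of low and high mitochondrial share, and bars give mean ± SD. In 8 of the 9 panels the genotypes do not overlap, against 19.0% of all tested genes, but the 9 genes were chosen on this contrast. For Vegfa, KO 1 at 101 CPM lies above WT 2 at 97.2 CPM.

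Vegfa (ENSMUSG00000023951), the main ligand of vessel growth, measured 196, 97.2 and 163 CPM in WT 1 to 3 and 101, 61.1 and 66.9 CPM in KO 1 to 3. WT 2 lay below KO 1, so the groups overlapped. The WT mean was 152 ± 50.5 CPM and the KO mean 76.5 ± 21.8 CPM (± SD of 3 libraries, here and below). The log2 fold change was -0.99 (SE 0.28), and Vegfa was not among the called genes. Within the library classes the log2 difference was -1.32 at low and -0.91 at high mitochondrial share. WT 1 and KO 1, the highest library of each genotype, belonged to the low class. KO 2, the lowest of all libraries at 61.1 CPM, belonged to it as well.

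Vegfb (ENSMUSG00000024962), a ligand of Flt1 but not of Kdr, varied little within a genotype: 50.1, 48.6 and 45.8 CPM in WT and 34.7, 35.0 and 30.8 CPM in KO. Every KO library lay below every WT library. The means of 48.2 ± 2.17 and 33.5 ± 2.34 CPM gave a log2 fold change of -0.52 (SE 0.11), 1.44-fold lower in KO. This was the smallest difference in size among the 9 genes, and its call was lost whichever of the 6 libraries was left out. Vegfc (ENSMUSG00000031520), a ligand of Flt4, measured 5.44, 7.40 and 4.59 CPM in WT and 2.22, 2.91 and 3.15 CPM in KO. The groups did not overlap, the log2 fold change was -1.07 (SE 0.24), and the gene was not called.

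Flt1 (ENSMUSG00000029648) was the receptor with by far the most RNA, at 27.8, 21.3 and 28.6 CPM in WT and 58.3, 51.6 and 59.1 CPM in KO. The lowest KO library lay well above the highest WT library. The means of 25.9 ± 4.02 and 56.4 ± 4.12 CPM gave a log2 fold change of 1.12 (SE 0.14), 2.17-fold higher in KO, with 0.98 and 1.25 in the low and high mitochondrial classes. Flt1 was the only member whose call held whichever of the 6 libraries was left out. The counts do not part full-length from secreted Flt1 transcripts.

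Kdr (ENSMUSG00000062960) and Flt4 (ENSMUSG00000020357) had few counts. Kdr had 18, 21 and 26 counts in WT and 36, 36 and 40 in KO, which is 0.875 ± 0.122 and 1.61 ± 0.149 CPM (log2 fold change 0.87, SE 0.25). Flt4 had 16, 11 and 19 counts in WT and 26, 35 and 21 in KO, or 0.620 ± 0.148 and 1.19 ± 0.330 CPM (log2 fold change 0.92, SE 0.34). Both were higher in every KO than in every WT library, and neither was called.

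The angiopoietins moved in opposite directions. Angpt1 (ENSMUSG00000022309), the Tie2 agonist, measured 7.34, 8.43 and 9.87 CPM in WT and 2.92, 3.20 and 4.20 CPM in KO, 2.48-fold lower in KO (log2 fold change -1.31, SE 0.20). Angpt2 (ENSMUSG00000031465) measured 39.4, 36.6 and 36.9 CPM in WT and 65.9, 75.3 and 65.3 CPM in KO, 1.83-fold higher (log2 fold change 0.87, SE 0.11). Neither gene's groups overlapped. The call of Angpt1 was lost without WT 3, KO 1 or KO 2 and that of Angpt2 without WT 3. Angpt2 lies on the minus strand inside Mcph1, a gene of the plus strand, and no source used here says whether counting took strand into account, so reads of the pair cannot be told apart with certainty. Mcph1 stood at 21.2 ± 1.04 CPM (WT) and 19.4 ± 0.537 CPM (KO), a log2 fold change of -0.13 (SE 0.11).

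Apln (ENSMUSG00000037010), the apelin precursor gene, measured 65.9, 60.6 and 59.5 CPM in WT and 94.9, 99.1 and 86.0 CPM in KO. The groups were far apart relative to their spread, with a log2 fold change of 0.59 (SE 0.11), 1.51-fold higher in KO. Its call was lost without WT 2, WT 3, KO 1 or KO 2, and also with the replicate number as a block. Without WT 3 just 1 of the 9 genes was called, against 2 without KO 1, 2 without KO 2 and 3 without WT 2.

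**Figure D2:**
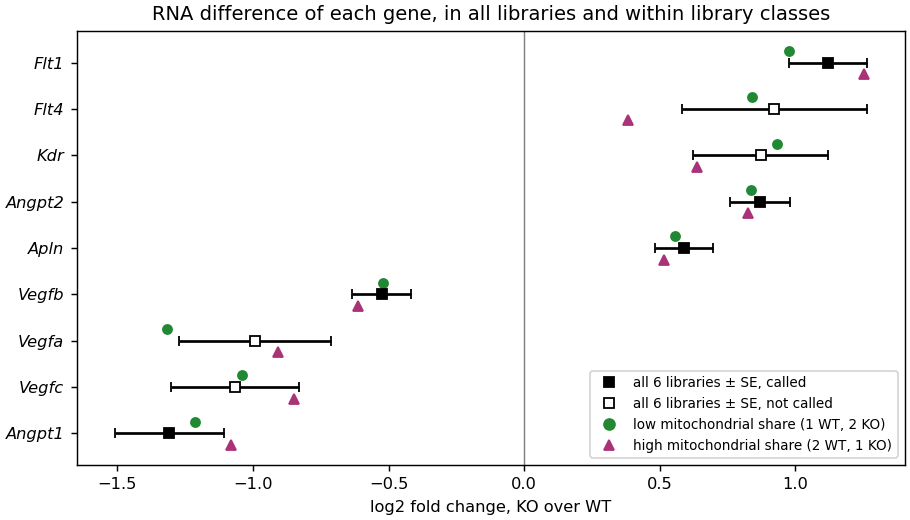
RNA log2 fold change, KO over WT (x axis), of the 9 genes; squares with bars are the fit over all 6 libraries ± SE (filled where called), and circles and triangles are differences within the low and high mitochondrial classes. All class values lie on the same side of 0 as the fit, and Flt4 has the widest gap between classes, 0.84 against 0.38.

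The 9 genes kept their direction in both mitochondrial classes. The class values are differences of mean log2(CPM + 0.2) with no test, since each class has 1 library in a genotype. For Angpt2 they were 0.84 and 0.83, for Apln 0.56 and 0.52, for Vegfb -0.52 and -0.61, for Vegfc -1.04 and -0.85, and for Angpt1 -1.21 and -1.08. Kdr had 0.93 and 0.64.

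To compare genes with one another, levels were divided by the deposited gene length. In WT, Vegfa was highest at 77.1 ± 25.6 CPM per kb, followed by Vegfb at 37.6 ± 1.69, Apln at 19.7 ± 1.09, Angpt2 at 10.6 ± 0.422 and Flt1 at 3.76 ± 0.582 CPM per kb. Vegfc (2.37 ± 0.588) and Angpt1 (2.01 ± 0.298) were neighbours whose libraries overlapped. Kdr and Flt4 came last, with 0.148 ± 0.0206 and 0.0991 ± 0.0237 CPM per kb. The ranges of all other neighbours were apart. In KO, Apln at 29.6 ± 2.13 CPM per kb ranked above Vegfb at 26.1 ± 1.82 and overlapped Vegfa at 38.8 ± 11.03; the order of the remaining genes was that of WT.

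Ratios of paired genes within a library do not depend on the scaling between libraries. On the per-kb scale, Vegfa exceeded Flt1 by 24.7-, 16.0- and 19.9-fold in WT 1 to 3 and by 6.07-, 4.14- and 3.95-fold in KO 1 to 3. Vegfa RNA thus stayed above Flt1 RNA in each library, and the ratio was lower in every KO library. The ratio of Angpt2 to Angpt1 was 6.42, 5.20 and 4.48 in WT and 27.0, 28.2 and 18.6 in KO, with no overlap. Flt1 exceeded Kdr by 31.5-, 21.2- and 24.5-fold in WT and by 28.2-, 29.6- and 32.6-fold in KO, and these groups overlapped. The first pair and the angiopoietin pair combine genes already known to differ in opposite directions, so their separation restates those differences.

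**Figure D3:**
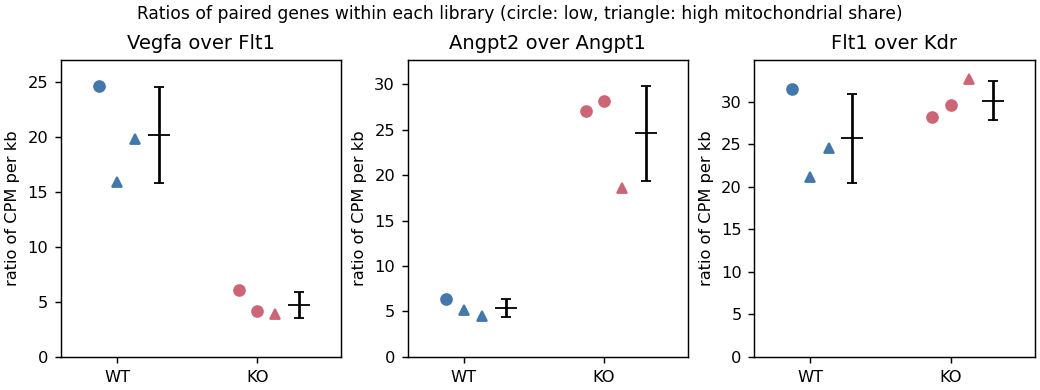
Ratio of CPM per kb between paired genes (y axis, from 0) in each RNA library, with mean ± SD; circles and triangles mark low and high mitochondrial share. Vegfa over Flt1 is 16.0 or more in WT and 6.07 or less in KO, Angpt2 over Angpt1 is 6.42 or less in WT and 18.6 or more in KO, and Flt1 over Kdr overlaps.

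The other genes of these pathways were taken from lists of 149 symbols, of which 127 were expressed enough to be tested. Of these, 5 rose and 14 fell by edgeR's quasi-likelihood test, 15.0% against 3.43% of all tested genes; the lists were drawn up with some of these changes known. Thbs2, Ndrg1, Bnip3 and Ldha were among those known beforehand. Leaving out WT 3 brought these 19 calls to 6, leaving out KO 1 or KO 2 to 7, and leaving out WT 2 to 9, the number also reached with the replicate number as a block.

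Partners of VEGF and angiopoietin changed singly. Of 4 tested VEGF ligands and co-receptors, Nrp2, a neuropilin that binds Vegfc together with Flt4, fell from 21.5, 19.6 and 19.1 CPM in WT to 10.0, 9.19 and 9.61 CPM in KO (log2 fold change -1.06, SE 0.12, adjusted p = 0.00399). The KO libraries all had about the same low value, and Nrp2 kept its call under each alternative run, including without each library. Nrp1, the neuropilin that binds Vegfa together with Kdr, stood at 26.0 ± 0.669 CPM (WT) and 24.0 ± 1.61 CPM (KO; adjusted p = 0.816), and Pgf and Plxnd1 did not pass; Plxnd1 had the highest WT level of the uncalled genes of this list, at 36.7 ± 8.93 CPM. The median of the list was 0.04. Of 5 tested genes around the angiopoietins, Svep1, a large extracellular protein known in lymphatic development, fell from 77.0, 60.8 and 85.0 to 33.7, 29.0 and 30.9 CPM (log2 fold change -1.25, SE 0.15, adjusted p = 0.00423). Angptl2, an angiopoietin-like secreted protein, rose from 3.38, 2.71 and 2.31 to 8.30, 9.14 and 7.75 CPM (log2 fold change 1.58, SE 0.19, adjusted p = 0.00452). Both kept their call without each library, and Angptl6, Angptl1 and Ptprb did not pass.

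The receptors for Angpt1, Angpt2 and Apln themselves had almost no RNA. Tek had 9, 3 and 6 counts in WT and 5, 5 and 7 in KO, and Tie1 had 0 counts in each WT library and 1, 0 and 2 in KO. Aplnr, the apelin receptor, had 0, 0 and 5 counts in WT and 0 counts in each KO library, and Apela, another ligand of that receptor, had 1, 0 and 2 counts in WT and 0, 0 and 2 in KO; neither was tested. Of 39 tested genes of VEGF receptor signalling none was called (median -0.02); Rac1, the most abundant, measured 609 ± 82.3 and 559 ± 70.1 CPM. At an unadjusted p under 0.05, 4 of those 39 genes passed (10.3%, against 13.7% of all tested genes), and DESeq2 called 2 of them, Ptk2 and Prkca (5.13%, against 6.26% of all).

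Among 30 tested genes of other angiogenic ligand and receptor systems, 1 rose and 2 fell (median 0.09). Ptn, pleiotrophin, a growth factor of progenitors, was the most abundant and fell 1.70-fold from 2003 ± 83.6 to 1181 ± 50.9 CPM (adjusted p = 0.0051). Pdgfd fell from 4.47 ± 0.734 to 2.13 ± 0.217 CPM, and Pdpn, podoplanin, rose from 24.5 ± 2.14 to 42.0 ± 4.40 CPM. The call of Pdgfd was lost without WT 2, WT 3, KO 1, KO 2 or KO 3 and that of Pdpn without WT 3, KO 1 or KO 2. Ednrb, an endothelin receptor, was the most abundant uncalled gene (854 ± 145 and 661 ± 107 CPM).

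Of 15 tested genes listed as angiogenesis inhibitors, 3 rose and 1 fell (median 0.04). Col18a1, whose collagen XVIII yields endostatin, rose from 17.0, 9.09 and 12.8 to 37.4, 41.0 and 26.4 CPM (2.69-fold, adjusted p = 0.0211). Thbs2, a thrombospondin, had a log2 fold change of 3.02 (SE 0.17), and Adamts8, a secreted metalloprotease, rose from 1.19 ± 0.174 to 2.92 ± 0.320 CPM. Serpinf1, which encodes PEDF, fell from 3.18 ± 0.525 to 1.35 ± 0.0543 CPM. Col18a1, Adamts8 and Serpinf1 each lost their call without WT 2, WT 3, KO 1 or KO 2, and Spry4 was the most abundant gene that did not pass (275 ± 13.2 and 209 ± 1.18 CPM).

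HIF genes and their targets were mostly lower in KO. Of 12 tested HIF regulators, Epas1, which encodes HIF-2 alpha, fell from 88.9, 76.0 and 88.1 to 52.4, 51.6 and 45.7 CPM (log2 fold change -0.76, SE 0.12, adjusted p = 0.0128), and Hif3a fell from 4.28 ± 0.588 to 1.89 ± 0.548 CPM. The other 10 did not pass (list median -0.17); Hif1a measured 218 ± 33.5 and 168 ± 30.3 CPM (adjusted p = 0.364), and Arnt2, the most abundant uncalled gene, 240 ± 16.4 and 243 ± 5.43 CPM. Of 23 tested HIF targets, 7 fell (30.4%, against 1.66% of all tested genes called lower) and none rose. A negative log2 fold change was found for 22, with a median of -0.69 against 0.01 over all tested genes. Ndrg1, Bnip3 and Ldha, among the 7, were known beforehand when the list was drawn up. These counts are therefore a description. The 4 with the smallest p were Ndrg1, Car9, Selenbp1 and Bnip3. Car9, a carbonic anhydrase, had 87, 35 and 42 counts in WT and 3, 7 and 4 in KO (10.95-fold lower, adjusted p = 0.0112), and Selenbp1 fell from 11.4 ± 0.510 to 5.66 ± 1.14 CPM. Adm, adrenomedullin, also an angiogenic peptide and a HIF target, was the exception in sign, at 22.0 ± 7.05 and 29.8 ± 4.07 CPM (adjusted p = 0.473), and Pgk1 was the most abundant uncalled target (1241 ± 94.4 and 1028 ± 90.0 CPM). The call of Epas1 was lost without WT 3, KO 1 or KO 2, and that of Hif3a without WT 2, WT 3, KO 1 or KO 2. Among the targets, Ndrg1 lost its call without WT 3, Car9 without KO 1, Selenbp1 without WT 2, WT 3 or KO 2, and Bnip3 without WT 2, WT 3, KO 1 or KO 2.

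**Figure D4:**
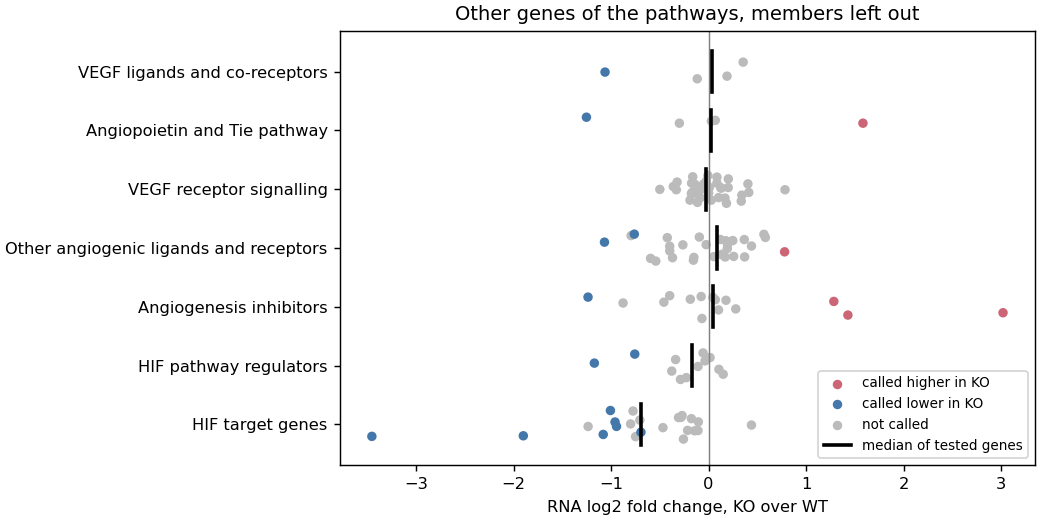
RNA log2 fold change, KO over WT (x axis), of each tested gene in the pathway lists, with called genes in colour and list medians as black bars. The HIF targets, some of them known beforehand, lie mainly left of 0 (median -0.69, 7 called lower), and no gene of VEGF receptor signalling is called.

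Of 23 endothelial markers, 17 were too low to be tested in these libraries. Cdh5, Cldn5 and Sox17 had 0 counts in each library, and Pecam1 had 9, 6 and 7 counts in WT and 4, 5 and 3 in KO. None of the 6 tested was called by edgeR. An unadjusted p under 0.05 was found for 2, Clec14a and Egfl7, against 13.7% of all tested genes. DESeq2 called 1, Clec14a (adjusted p = 0.00203), against 6.26% of all tested genes. Clec14a, an endothelial surface protein, measured 1.39, 2.14 and 1.35 CPM in WT and 3.51, 5.82 and 3.31 CPM in KO, with no overlap (log2 fold change 1.37, SE 0.30, adjusted p = 0.0514 by edgeR). Its part in the Flt1 difference was not tested. Mfsd2a, Plvap and Egfl7 were the most abundant. The summed level of the list was 69.8 to 76.9 CPM in WT and 69.7 to 80.5 in KO, above that of Flt1, and Mfsd2a made up most of it, at 53.7 ± 1.93 and 56.7 ± 2.38 CPM. In bulk RNA, a different share of Flt1-expressing cells and a different amount of Flt1 RNA per cell cannot be told apart.

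Markers of other cells were checked in the same way, and over all marker lists 14 of 63 tested genes were called (22.2%, against 3.43% of all tested genes). The summed mural list was 152 to 266 CPM in WT and 202 to 285 in KO, led by Cspg4 and Notch3, which progenitors also express; Acta2 was the 1 called gene of 6 tested and fell, and Higd1b was at 0. The microglial markers C1qc, Cx3cr1, Itgam and Trem2 were at 0 in each library, and no erythroid marker was tested. Of 7 tested fibroblast and meningeal markers, led by Igfbp2 and Ptgds, Twist1 rose and Foxc1 fell. Neural stem markers were abundant, with a summed level of 10372 to 10956 CPM in WT and 12045 to 12196 in KO, Tnc and Vim higher and Slc1a3 lower; Ptprz1 led the list. Of the 15 tested neural stem markers, 12 were not called, and 8 had a positive and 7 a negative log2 fold change. In the neuron list, led by Map2, Gap43 and Elavl3, Nefm, Nefl and Gap43 rose. Of its 11 tested genes 8 were not called, and 3 had a negative sign. In the astrocyte list, led by Aldoc, Aldh1l1 and Sparcl1, S100b, Sparcl1, Agt and Aldoc fell. Of its 10 tested genes 6 were not called, and 3 had a positive sign. In the oligodendrocyte lineage list, led by Olig1, Olig2 and Cspg4, Myrf rose. Of its 9 tested genes 8 were not called, and 3 had a negative sign. Tnc, S100b and Sparcl1 kept their call whichever library was left out. With 1 of the 6 libraries left out in turn, Aldoc lost its call in 6 fits, Myrf, Slc1a3 and Twist1 in 5, Vim and Gap43 in 4, Acta2 and Foxc1 in 3, Agt and Nefl in 2 and Nefm in 1 (without WT 3). The part of these marker differences in the results above was not tested.

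Over the 6 libraries, the genes whose log2 CPM followed Flt1 most closely were Sh3yl1, Slc6a6, Pcdha10 and Tmem131 (Pearson r of 0.999, 0.996, 0.994 and 0.993), among 11675 genes searched. For Vegfa they were Tshz1, Tiam2, Mmd2 and Hk2 (r of 0.997, 0.990, 0.986 and 0.985). Hk2, hexokinase 2, is in the HIF target list above, where it did not pass. With 6 libraries and this many genes, such values describe these libraries only, and the libraries share genotype and mitochondrial class. In the deposited annotation, 151 tested genes other than the members carry the GO term angiogenesis, a set added after the data were seen. Of these, 4 rose and 7 fell (7.28% against 3.43% of all tested genes, median 0.02), Nrp2, Cav1, Epas1 and Amot among those that fell and Ephb2 and Hey1 among those that rose.

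The CUT&Tag libraries took no part in the choice of genes, so their differences were tested, with a fit over all 69209 tested regions. The authors assigned 29 of 69418 regions to 7 of the genes, 8 of them to Angpt2, 5 each to Flt1 and Vegfc, 4 to Apln, 3 each to Kdr and Vegfa and 1 to Flt4. No region was assigned to Angpt1 or Vegfb. Of the 29 regions, 23 (79.3%) carried the authors' peak mark in 1 library only, against 63.5% of all regions, and 1, which lies 19391 bases upstream of Apln, carried it in all 4 libraries. Counts ran from 5 to 89 reads per region and library, where the median region had 31 to 44 reads.

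No region of these genes was called by edgeR (0 of 29, against 0.00722% of all regions), none had an unadjusted p under 0.05, against 5.35% of all regions, and DESeq2 called none. Between the genotypes 11 of 29 regions did not overlap (37.9%, against 34.7% of all), 19 were higher and 10 lower in KO, and the median log2 fold change was 0.10 against 0.01 over all regions. In simulated data of the same depth, 7.0% of regions with a log2 difference of 1 and 83.0% with a log2 difference of 2 were recovered, so a log2 difference of 1 at a single region would usually not be detected.

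Of the 29 regions, 7 lay within 3 kb of the assigned start site. At Kdr (GRCm39 chromosome 5, 76138580 to 76139359, on the start site) WT libraries had 80 and 53 reads and KO libraries 55 and 74, and the groups overlapped (log2 fold change -0.34, SE 0.26, adjusted p = 0.933, edgeR). At Vegfa (chromosome 17, 46344134 to 46344343, 839 bases upstream) WT had 59 and 31 and KO 42 and 31 (log2 fold change -0.62, SE 0.35). Vegfc had a region on its start site (chromosome 8, 54530785 to 54530984; 20 and 17 reads in WT, 32 and 17 in KO) and another 352 bases upstream (54530080 to 54530289; 39 and 18 in WT, 22 and 30 in KO), with log2 fold changes of 0.07 (SE 0.56) and -0.42 (SE 0.46). After scaling over all regions, both KO libraries lay below both WT libraries at Vegfa, the genotypes overlapped at Kdr and Vegfc, and none of these regions passed the test. The Vegfa separation depended on the scaling. Scaled over only the regions within 3 kb of a start site, WT 2 (27.3 CPM) lay below KO 1 (28.5 CPM).

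Scaled over all regions, the genotypes also overlapped at the remaining near regions. Scaled over only the regions within 3 kb of a start site, Angpt2 did not overlap (36.2 and 33.5 CPM in WT, 36.6 and 45.6 CPM in KO). Angpt2 had 43 and 38 reads (WT) against 54 and 56 (KO) at 2586 bases upstream (chromosome 8, 18794164 to 18794392; log2 fold change 0.13, SE 0.32). Apln had 31 and 13 in WT and 25 and 38 in KO at 1516 bases downstream (chromosome X, 47121926 to 47122214; 0.23, SE 0.47). The Flt1 region annotated as promoter (chromosome 5, 147581914 to 147582322) was assigned to a start site that lies inside the gene and had 50 and 45 reads (WT) against 73 and 32 (KO) (-0.20, SE 0.31). For Vegfb, the neighbouring gene Dnajc4 had a region on its own start site with 41 and 53 reads (WT) against 54 and 62 (KO; chromosome 19, 6969872 to 6970110; -0.01, SE 0.30). Fkbp2, the neighbour on the other side, had 190 and 214 reads (WT) against 217 and 171 (KO) at 6956893 to 6957589 (-0.38, SE 0.17). After scaling these groups did not overlap (edgeR, unadjusted p = 0.020, adjusted p = 0.902). A weaker Fkbp2 region at 6957776 to 6958037 overlapped (-0.54, SE 0.34).

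Of the 5 regions with the smallest p, 2 were assigned to Flt1, 2 to Vegfa and 1 to Angpt2. The Flt1 pair lies in intron 10 of its long transcript: 35 and 21 reads in WT against 47 and 64 in KO at 147593178 to 147593529 (log2 fold change 0.69, SE 0.35, unadjusted p = 0.0514), and 12 and 7 against 30 and 27 at 147601255 to 147601533 (1.26, SE 0.66, unadjusted p = 0.055). The adjusted p was 0.932 and 0.933 by edgeR. The others among the 5 were the Vegfa region 839 bases upstream (unadjusted p = 0.0784), an Angpt2-assigned region in Mcph1 (18840613 to 18840991; 0.62, SE 0.38, unadjusted p = 0.108) and a Vegfa-assigned intergenic region 8893 bases upstream (46352188 to 46352637; 60 and 89 reads in WT, 87 and 63 in KO). In the authors' deposited table, the second of the Flt1 regions had a log2 fold change of 1.27 and a p of 0.0273, the 1 member region there under 0.05. Of the 5 Flt1 regions, 4 were higher in KO.

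Summed over all regions assigned to a gene, Flt1 had 147 and 116 reads (WT) against 238 and 197 (KO), which is 43.4 ± 5.59 and 59.5 ± 0.230 CPM of reads in regions (SD, n = 2 each). Both KO libraries lay above both WT libraries (log2 fold change 0.45, SE 0.17), with an unadjusted p of 0.00696 (7.64% of all genes were under 0.05) and an adjusted p of 0.465 over 13632 genes (edgeR), so Flt1 was not called. Vegfa had 149 and 155 reads (WT) against 165 and 139 (KO) (-0.27, SE 0.18, adjusted p = 0.763), also without overlap on the CPM scale. Groups did not overlap for 37.3% of all genes. Kdr, Flt4, Angpt2, Vegfc and Apln had log2 fold changes of -0.00, 0.15, 0.08, 0.26 and -0.14, with SE of 0.12 to 0.37, and their groups overlapped. None of the 7 genes was called, by edgeR or DESeq2, against 0.088% of all genes, and none of the 6 with a region within 3 kb of a start site was called on promoter reads, against 0.0287%.

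**Figure D5:**
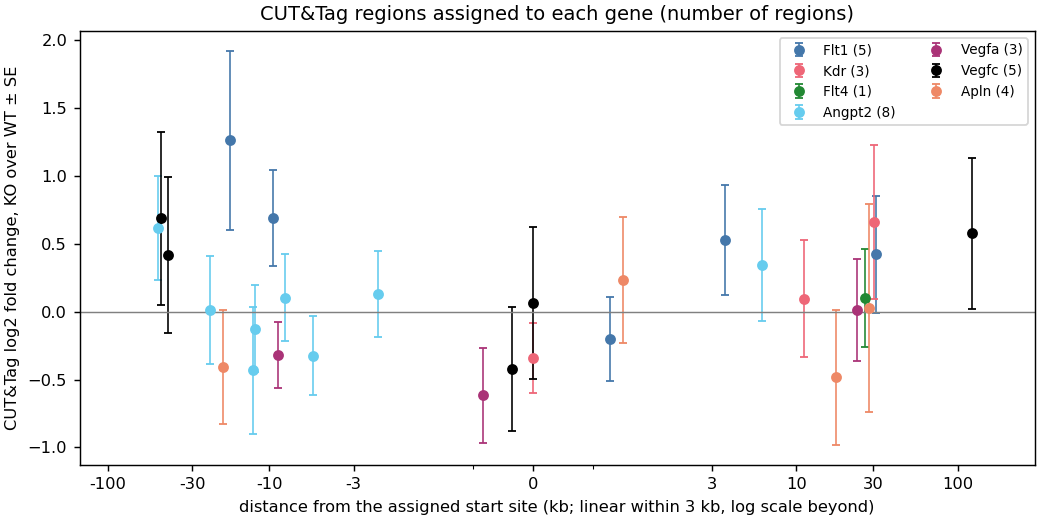
CUT&Tag log2 fold change, KO over WT ± SE (y axis), of the 29 regions assigned to 7 genes, by distance from the assigned start site in kb (x axis, linear within 3 kb and logarithmic beyond). Of 5 Flt1 regions, 4 lie above 0, regions on or just upstream of the start sites of Kdr, Vegfa and Vegfc lie near or below 0, and no region is called.

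Side by side, the RNA and CUT&Tag differences of the genes with regions were 1.12 and 0.45 for Flt1, -0.99 and -0.27 for Vegfa, 0.87 and 0.08 for Angpt2, 0.59 and -0.14 for Apln, -1.07 and 0.26 for Vegfc, 0.87 and -0.00 for Kdr, and 0.92 and 0.15 for Flt4. The sign was shared for Flt1, Vegfa, Angpt2 and Flt4. The CUT&Tag values were smaller in size for each of the 7 genes and none passed its test, so no agreement or disagreement between the assays is claimed.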

How the data were processed

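RNA (poly(A)-selected, stranded kit, per the labels' protocols) was measured in 3 WT and 3 KO libraries and CUT&Tag in 2 and 2. HISAT2, StringTie and the build GRCm39 are named in the submitters' processing notes; for the counting tool, its strand setting, the antibody and the peak caller, no name was found in those notes or labels. The authors deposited expected counts per gene, which were rounded to whole numbers. For CUT&Tag, the authors deposited counts per region, with RPM (depth-scaled reads), log2 fold changes, p-values and q-values; the RPM were not tested. Genes and regions passing edgeR's filterByExpr (minimum count 10) were tested with edgeR 4.0.16 (R 4.3.3), TMM scaling and the robust quasi-likelihood test, and called at a Benjamini-Hochberg adjusted p under 0.05. The common biological coefficient of variation was 17.9% for RNA and 18.9% for CUT&Tag. The spread of levels is the SD over libraries.

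The members and gene lists were chosen with earlier results of these data known. Named genes were the members; in each pathway list every called gene if 6 or fewer, otherwise the 4 with the smallest p, plus the most abundant uncalled gene; in each marker list up to 4 called genes and the 3 most abundant; the 4 genes most like Flt1 and the 4 most like Vegfa; and regions within 3 kb of a start site plus the 5 with the smallest p. Other genes named were chosen after their values were seen, and some items of the lists are not reported here. The fit was tested on simulated data: 71.7% of genes with a log2 difference of 1 and 100% with 2 were recovered for RNA. Alternatives were RLE scaling, library totals, DESeq2 1.42.0, other filters, a replicate block and no robust dispersion. Further runs used the mitochondrial class (low or high) as a covariate (RNA), other promoter windows or each library left out. The within-class values and the GO angiogenesis count were added after the data were seen. Mitochondrial classes were split at 3%.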

Additional observations from a re-analysis of the deposited data

How the results depend on the processing

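The 5 members called for RNA became 4 with library totals, 7 with DESeq2 and 6 without the count filter. They became 6 with the mitochondrial class (low or high) as a covariate and 1 to 4 with a library left out. The 19 pathway genes became 29 with DESeq2, 41 with that covariate and 6 to 21 with a library left out, and the 14 marker genes became 25 and 4 to 14 with the last pair of settings. With the replicate block the counts were 4 members, 9 pathway genes and 7 marker genes. The deviations of same-numbered RNA libraries correlated at 0.61, -0.52 and 0.31, and not every RNA library correlated best with its own number. WT 1 correlated with KO 2 at 0.66 and WT 2 with KO 3 at 0.69, pairs that share a mitochondrial class. Because class could mask a pairing by number, this check cannot decide whether the numbers pair the libraries. The CUT&Tag values were mirror images, 0.02 for the same number and -0.02 otherwise, and cannot decide it either. Vegfa was called with DESeq2 and with the block, and Vegfc with DESeq2, without the filter and with the covariate. Apln and Vegfb lost their call with the block, and Vegfb also with library totals. No member's RNA direction reversed. Over all genes, 525 calls became 958 with DESeq2, 1695 with the covariate, 229 with the block, 313 without WT 2, 145 without WT 3, 179 without KO 1 and 179 without KO 2; the cause was not tested.

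No CUT&Tag region, gene sum or promoter sum of a member was called under any alternative run. The summed log2 fold change changed sign for Kdr (0.0030 with DESeq2, and -0.24 to 0.21 with a library left out), Flt4 (-0.42 to 0.58), Angpt2 (-0.013 to 0.17), Vegfc (-0.032 to 0.64) and Apln (-0.33 to 0.084), the last 4 with a library left out. With 5 to 89 reads per region and 2 libraries per genotype, even a log2 difference of 1 at a single region would usually be missed (7.0% recovered in simulated data). Where a genotype was left with 1 CUT&Tag library, that library was assumed to vary like the others.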
